A study of Mus musculus with 2 samples.

Results

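Acta2, Actg2, Tagln, Myh11, Cnn1, Tpm1, Tpm2 and Myl9 are 8 genes of the contractile apparatus of smooth muscle, chosen by symbol from the 19626 genes of the count table, and all 8 were found there. Their levels are described in every cell cluster of the mouse incisor cervical loop region, in 1 Memo1;K14CRE mouse and 1 control mouse, both at postnatal day 20. The tissue held epithelium and mesenchyme, and each mouse gave 1 droplet library of 3′ transcript ends (10x Genomics), in which a unique molecular identifier (UMI) marks each captured molecule. There were 13820 mutant and 9708 control cells, with 120862385 and 79518656 UMIs in all, and 139 cell barcodes occurred in both libraries. Of cluster 10, on which most results turn, 1 mutant cell carried such a barcode. The keratin 14 promoter drives Cre in epithelial cells, so the deletion of Memo1 is directed at epithelium and not at mural or other mesenchymal cells. The genotype of the control is given only as control.

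Smooth muscle contracts when myosin pulls on actin filaments, and myosin light chain kinase starts the cycle after calcium enters the cell. Acta2 and Actg2 encode the vascular and enteric smooth muscle actins, Myh11 the smooth muscle myosin heavy chain and Myl9 its regulatory light chain. Tpm1 and Tpm2 encode tropomyosins, Tagln encodes transgelin, and Cnn1 encodes calponin, all of which bind actin filaments. In blood vessels the mural cells are pericytes on capillaries and smooth muscle cells on larger vessels. Tropomyosins and light chains are also made in cells that are not muscle, and many activated fibroblasts make Acta2.

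Many contractile genes carry CArG boxes near their start, the sites that serum response factor binds with its partner myocardin. RefSeq promoter windows of GRCm38.p6, 250 bases before to 50 bases after a start, were at hand for 5 of the 8 genes, Acta2, Cnn1, Tpm1, Tpm2 and Myl9. The exact CArG box (CC, 6 bases of A or T, GG, a pattern that reads the same on both strands) was in 1.63% of 32851 windows, and a box with at most 1 substitution in 21.1%. Of these 5 genes, Myl9 held an exact box, Acta2, Tpm1 and Myl9 held boxes with 1 substitution, and Cnn1 and Tpm2 held neither. Cnn1 and Tpm2 were higher in the mutant in cluster 10, described below, as were the genes with a box, and a link was not tested. The 6 boxes are shown because they lie near the starts of contractile genes described here. Each is in capitals with 10 bases on either side, read in the direction of the gene.
Acta2, chr19:34255438-34255467, minus strand, 84 to 75 bases before the start, 1 substitution: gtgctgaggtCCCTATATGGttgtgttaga
Acta2, chr19:34255388-34255417, minus strand, 34 to 25 bases before the start, 1 substitution: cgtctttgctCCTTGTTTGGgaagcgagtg
Tpm1, chr9:67049415-67049444, minus strand, 221 to 212 bases before the start, 1 substitution: gctcgggtccCCATATATAGtcatatccac
Tpm1, chr9:67049274-67049303, minus strand, 80 to 71 bases before the start, 1 substitution: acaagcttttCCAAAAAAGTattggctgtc
Myl9, chr2:156775293-156775322, plus strand, 161 to 152 bases before the start, exact: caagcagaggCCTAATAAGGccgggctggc
Myl9, chr2:156775355-156775384, plus strand, 99 to 90 bases before the start, 1 substitution: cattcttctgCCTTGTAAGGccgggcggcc
Both Acta2 boxes and the nearer Tpm1 box lie within exons that GENCODE M21 annotates. No measurement of binding was made in this series, and a match is a match of letters.

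In GENCODE M21 (GRCm38), Acta2 is on chromosome 19 (34241090 to 34255590), Actg2 on chromosome 6 (83512905 to 83536265) and Myh11 on chromosome 16 (14194535 to 14291372), all on the minus strand. Chromosome 9 holds Tagln (45929619 to 45936058, minus), Cnn1 (22099216 to 22109630, plus) and Tpm1 (67022590 to 67049406, minus). Tpm2 is on chromosome 4 (43514711 to 43523765, minus) and Myl9 on chromosome 2 (156775420 to 156781658, plus). All 8 are protein-coding.

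The authors sorted the cells into 29 numbered clusters over all cells and 9 within the ameloblast lineage, the epithelial cells that make enamel, and gave them no names. Of these, 26 and 8 had at least 50 cells in each library and were compared. Levels are given as CPM, the UMIs of a gene in a cluster and library scaled to a class total of 1000000 UMIs. Ratios are mutant over control with an exact 95% interval of 2 Poisson counts, and a gene was measured in a cluster when it had at least 20 counts and 10 CPM on average. The words higher and lower are used of intervals wholly above or below 1. With 1 mouse and 1 library a group there was no replicate and no p-value, and the intervals cover counting error alone, so a difference between these libraries cannot be told apart from a difference between any 2 mice or preparations. Memo1 itself stood at 17.7 CPM in the mutant and 18.98 CPM in the control library, in the ameloblast lineage at 17.7 and 20.3 CPM (ratio 0.872, 0.771 to 0.987) and in cluster 10 at 21.5 and 17.4 CPM. 3′ reads outside a deleted exon still count, so these values do not check the deletion.

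The contractile genes were concentrated in a few clusters. Cluster 10 had the highest level of Acta2, Actg2, Tagln, Myh11 and Tpm2 in both libraries, and the sum of the 8 genes there was 14838 CPM in the mutant and 8742 CPM in the control library, against 6050 and 7626 CPM in cluster 13. Its leading genes were Rgs5, Ndufa4l2, Fabp4, Col5a3, Aspn and Acta2. All 11 pericyte markers and 11 of 12 vascular smooth muscle markers, 4 of them among the 8 genes, stood at least 1.5-fold above the other cells there, so it is called mural-like below. Acta2 and Myh11 helped to define the cluster, so their high level in it is no finding.

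**Figure D1:**
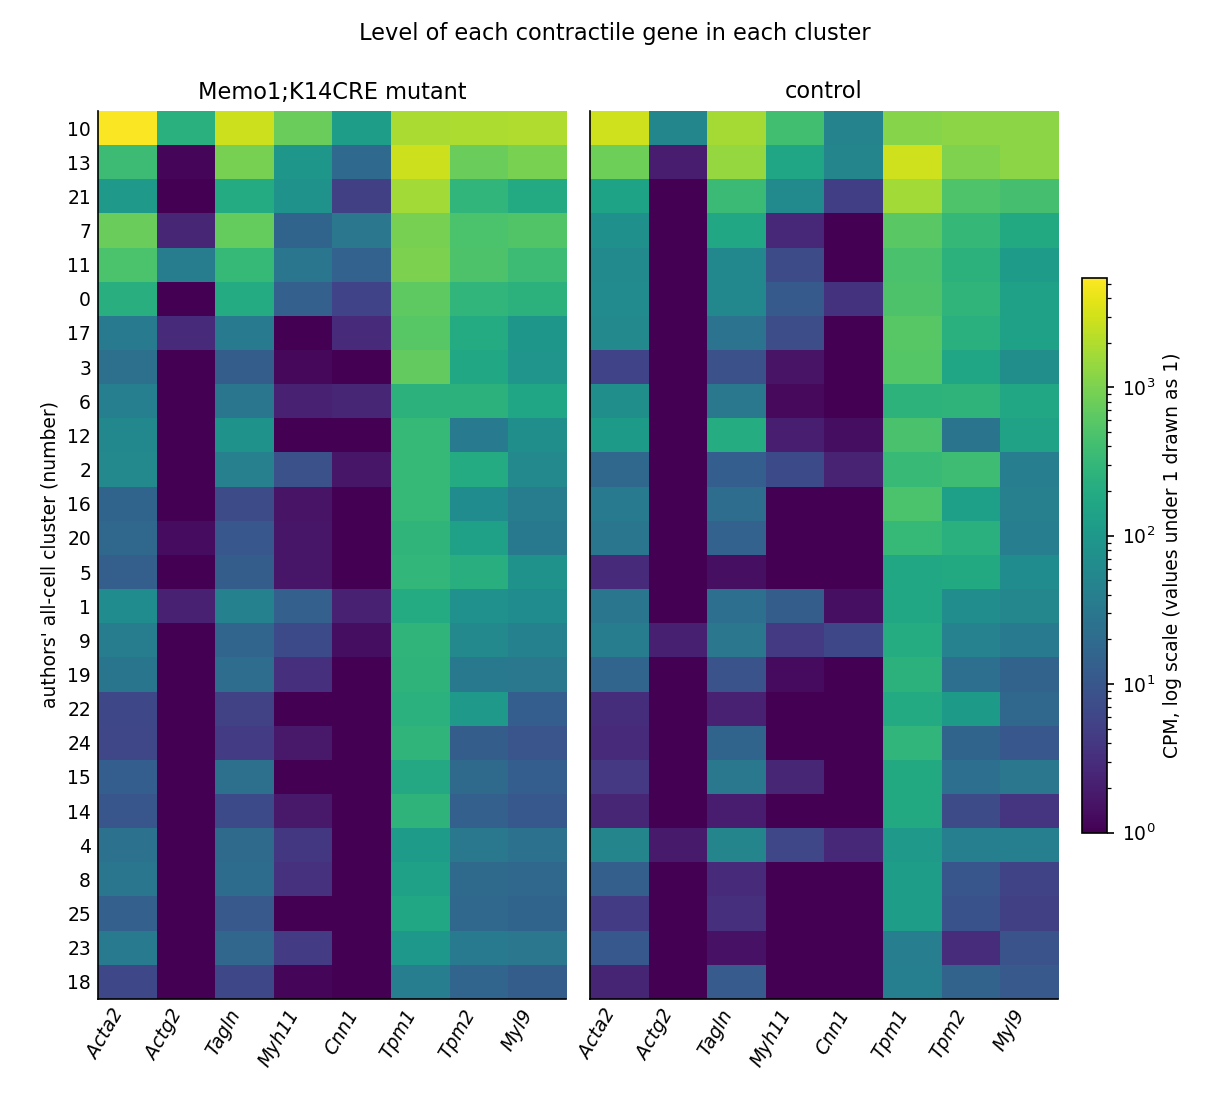
Level of the 8 contractile genes (columns) in the 26 all-cell clusters compared (rows, highest summed level at the top), as CPM on a log colour scale, mutant in the left panel and control in the right panel. Cluster 10 is brightest for Acta2 in both, at 5145 CPM in the mutant and 2935 CPM in the control, and Actg2 is dark almost everywhere else.

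The order of the clusters differed by gene. Tpm1 was highest in cluster 13, at 2882 CPM in the mutant and 2911 CPM in the control. Cluster 10 came next in the mutant, not clear of cluster 21 at 1677 CPM, and after cluster 21 in the control (1684 CPM against 1150 CPM in cluster 10). Cluster 13 was led by Bmp3, Dkk2, Lrrc15, Adgrg6, Col26a1 and type I collagen genes, and 6 of 8 fibroblast markers stood above the other cells there. In the control, Cnn1 (49.6 CPM in cluster 13, 47.3 in cluster 10) and Myl9 (1235 and 1227 CPM) did not differ between these clusters beyond counting error. In the mutant, both genes were highest in cluster 10. Actg2 was the most restricted gene, and after cluster 10 its next level was 39.1 CPM in cluster 11 of the mutant and 2.15 CPM, a single count, in cluster 9 of the control.

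As a share of all counts of a gene in a library, cluster 10 held 63.0% of Acta2 in the mutant and 45.3% in the control. For Myh11 the shares were 73.1% and 42.7%, and for Actg2 84.9% and 75.2%. Cluster 7, led by Sfrp2, Mmp13 and Tnn and with 7 of 8 fibroblast markers above the other cells, held 17.9% of Acta2 in the mutant and 0.696% in the control, and 24.0% and 0.255% of Cnn1. Cluster 13 held 8.37% of Acta2 in the mutant and 35.2% in the control. These shares depend on cell numbers as well as on levels: clusters 10, 7 and 13 had 551, 770 and 430 mutant cells and 212, 102 and 224 control cells.

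**Figure D2:**
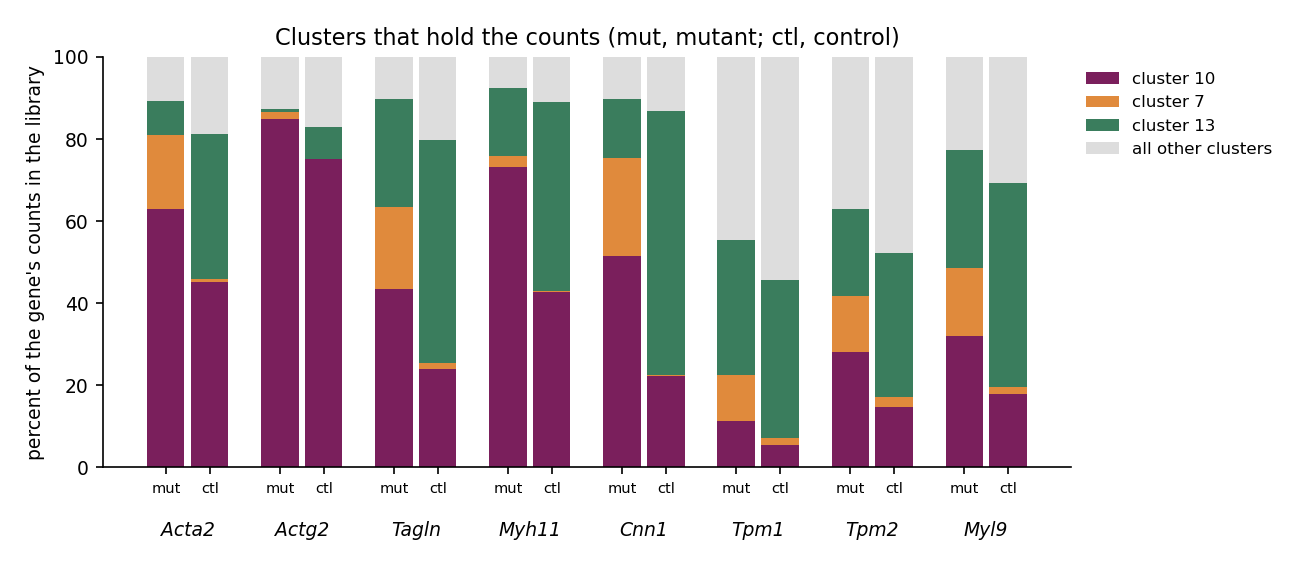
Percent of each gene's counts in a library that lay in clusters 10, 7, 13 and all others, one stacked bar per gene and library with the mutant bar on the left. Clusters 10 and 7 take larger parts of the mutant bars, and cluster 13 takes larger parts of the control bars, for example 8.37% against 35.2% of Acta2.

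Within mural-like cluster 10, all 8 contractile genes were higher in the mutant. The interval lay above 1 for 11.8% of the 8419 genes measured in this cluster and below 1 for 8.48%, and the median log2 ratio was 0.79 for the 8 genes and 0.02 for all genes. The class totals were 4418200 UMIs in the mutant and 1840486 in the control, and the median cell held 7316 and 7302 UMIs.

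Of the actins, Acta2 had 5145 CPM in mutant and 2935 CPM in control mural-like cells, a ratio of 1.75 (1.70 to 1.81). Actg2, the enteric smooth muscle actin, had 237 CPM in the mutant and 52.7 CPM in the control, a ratio of 4.50 (3.66 to 5.61). This was the highest ratio of the 8, with an interval above all others, and 1 cell held 7.44% of its mutant and 26.8% of its control counts.

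Of the motor proteins, Myh11 had 775 CPM in the mutant and 406 CPM in the control, a ratio of 1.91 (1.76 to 2.07). Myl9 had 1969 CPM in the mutant and 1227 CPM in the control, a ratio of 1.60 (1.53 to 1.68). The heavy and the light chain were thus both higher in the mutant.

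Of the filament-binding proteins, Tagln had 2890 CPM in the mutant and 1705 CPM in the control, a ratio of 1.70 (1.63 to 1.76). Cnn1 had 125 CPM in the mutant and 47.3 CPM in the control, a ratio of 2.64 (2.10 to 3.35). Tpm1 had 1821 CPM in the mutant and 1150 CPM in the control, and Tpm2 had 1875 and 1218 CPM, with ratios of 1.58 (1.51 to 1.66) and 1.54 (1.47 to 1.61). The intervals of Tpm1, Tpm2 and Myl9 overlapped one another. Actg2 and Cnn1 were the 2 genes at least 2-fold higher, which 1.89% of all genes were in this cluster. When cells with at least 2 UMIs of endothelial, macrophage or dental epithelial markers were left out, which kept 240 mutant and 82 control cells, the ratio of the summed level was 1.25 in place of 1.70. In those cells Cnn1 had a ratio of 1.35 and Actg2 of 10.1.

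**Figure D3:**
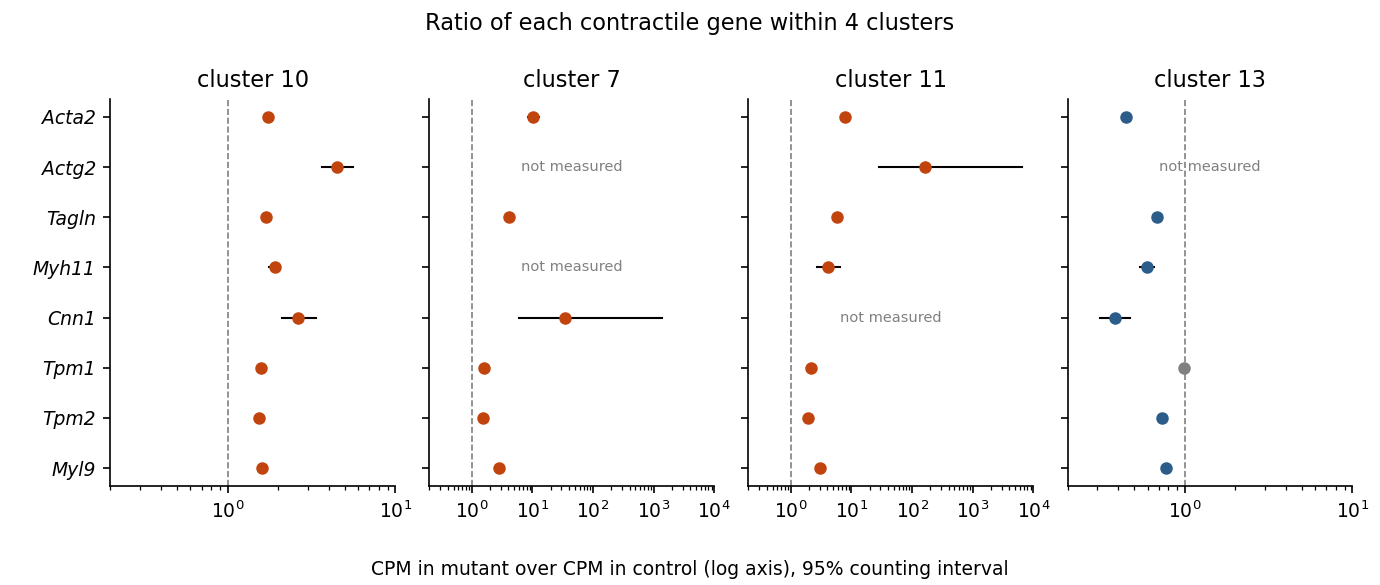
Ratio of CPM in the mutant over CPM in the control (log axis; the axis is longer for clusters 7 and 11) with 95% counting intervals for the 8 genes in clusters 10, 7, 11 and 13. Red points have intervals above 1, blue points below 1 and grey points hold 1. All points of clusters 10, 7 and 11 are red, and 6 of 7 points of cluster 13 are blue.

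Markers of other cells also differed in cluster 10. Secretory ameloblast transcripts summed to 1257 CPM in the mutant and 4287 CPM in the control, and haemoglobin and other erythroid transcripts to 185 and 1013 CPM. Macrophage markers summed to 298 CPM in the mutant and 165 CPM in the control, and endothelial markers to 195 and 118 CPM. None of the endothelial, macrophage, secretory ameloblast or erythroid markers stood 1.5-fold above the other cells in cluster 10. The cells left out above were chosen by endothelial, macrophage and dental epithelial markers alone. The part of secretory ameloblast and erythroid transcripts in the contractile ratios was not tested. That of endothelial and macrophage transcripts was not tested further. For skeletal muscle, 5 of 11 listed genes in the file were at 0 counts in each library of cluster 10, and the cardiac markers summed to 1.13 CPM in the mutant and 0.543 CPM in the control. Fibroblast markers summed to 3027 CPM in the mutant and 3259 CPM in the control, those of dental pulp and follicle to 2082 and 2179 CPM and those of odontoblasts to 91.9 and 68.5 CPM. Dental epithelial markers summed to 121 CPM in the mutant and 196 CPM in the control, those of maturation ameloblasts to 5.21 and 44.0 CPM, of Schwann cells to 8.83 and 5.43 CPM and of cycling cells to 77.4 and 92.4 CPM.

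Single cells showed what the sums were made of. In cells with at least 1000 UMIs of cluster 10, the 8 genes made up a median of 0.411% of the UMIs of a cell in the mutant (476 cells) and 0.191% in the control (173 cells). The upper quartile was 2.05% in the mutant and 0.697% in the control, and the 95th percentile was 5.88% and 4.59%. Cells above 1% were 168 of 476 in the mutant, or 35.3% (exact Clopper-Pearson interval 31.0 to 39.8), and 32 of 173 in the control, or 18.5% (13.01 to 25.1). The 1% limit was set with the values in view, and 97 mutant and 34 control cells lay between 0.5% and 2%. The 10 cells with the most counts held 16.8% of the contractile counts of the mutant cluster and 44.5% of the control cluster. Without the 1 cell with the most contractile counts in each library the ratio of the sum was 1.81.

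**Figure D4:**
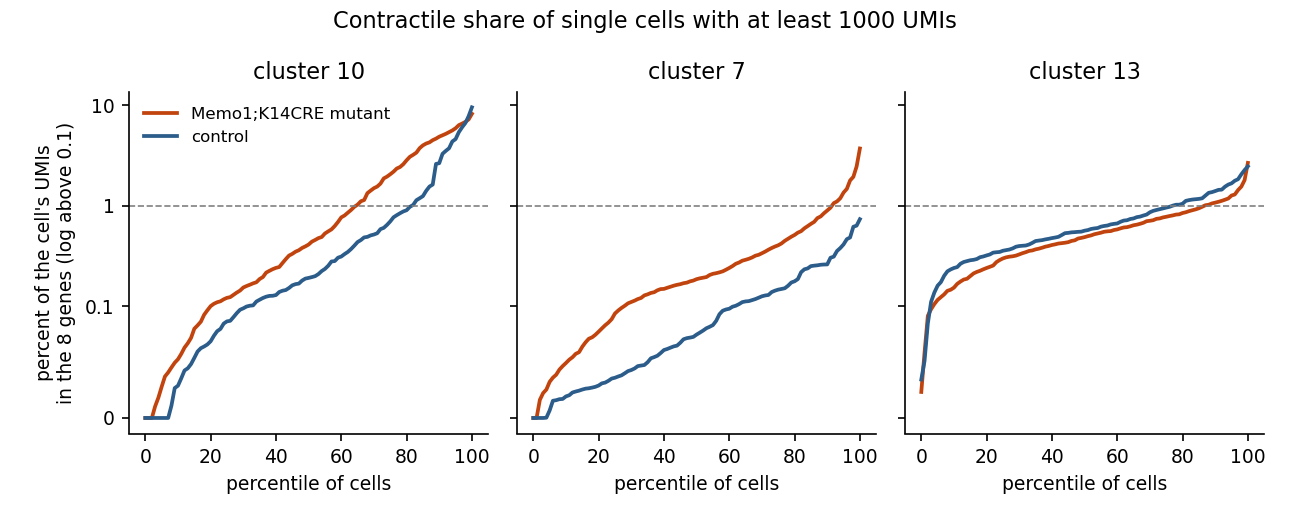
Percent of a cell's UMIs in the 8 contractile genes (log scale above 0.1, linear below) against the percentile of cells, for cells with at least 1000 UMIs in clusters 10, 7 and 13. The mutant curve lies above the control curve over most of cluster 10 and nearly all of cluster 7, where 65 of 770 mutant and 0 of 102 control cells passed 1% (dashed line), and below it over most of cluster 13.

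In cluster 10 the genes were found together in the same cells. After each cell was thinned to 1000 UMIs, at least 4 of the 8 genes were detected in 43.7% of mutant and 26.0% of control cells of cluster 10, and at least 6 in 119 of 476 mutant cells and 13.3% of control cells. None was detected in 17.2% of mutant and 23.7% of control cells. Tagln was detected in 68.0% of mutant cells with Acta2 and 2.86% of those without it, and in 68.8% and 9.17% of control cells. Myh11 was detected in 53.4% of mutant cells with Acta2 and 10.95% of those without, and in 46.9% and 8.26% of control cells. In cluster 13, Myh11 was detected in 10.3% of mutant cells with Acta2 and 9.94% without, and in 14.9% and 12.1% of control cells. For Tagln in cluster 13 the shares with and without Acta2 were 73.1% and 38.4% in the mutant and 79.1% and 49.0% in the control.

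Acta2 was detected in 55.9% of thinned mutant and 37.0% of thinned control cells of cluster 10. Before thinning the shares were 66.1% (61.9 to 70.0) and 51.4% (44.5 to 58.3). In cluster 18, whose cells carry mostly haemoglobin and should lack the gene, the thinned shares were 0.602% and 0.791%, at median depths of 11224 UMIs in the mutant and 10660 in the control.

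The other genes were also detected in more of the thinned mutant cells of cluster 10. Tpm1 was detected in 66.0% of mutant and 50.3% of control cells, Tpm2 in 56.1% and 40.5%, and Myl9 in 50.6% and 41.0%. Tagln was detected in 39.3% of mutant and 31.2% of control cells, and Myh11 in 34.7% and 22.5%. The rarest were Actg2, in 10.1% of mutant and 5.78% of control cells, and Cnn1, in 7.35% and 4.62%. In cluster 18 the highest thinned share of any of the 8 was 3.01% in the mutant, for Myl9, and 3.56% in the control, for Tpm1.

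Cells above and below the 1% limit differed in several pericyte genes, which the limit did not use. In the mutant, Rgs5 had 9409 CPM above and 21192 CPM below the limit, Abcc9 93.8 and 679 CPM, and Kcnj8 68.3 and 339 CPM. In the control, Rgs5 had 10735 CPM above and 19883 CPM below the limit, Abcc9 104 and 638 CPM, and Kcnj8 82.2 and 371 CPM. Abcc9 and Kcnj8 encode the subunits of the ATP-sensitive potassium channel of pericytes. Pln, which encodes the calcium pump regulator phospholamban, ran the other way, with 372 CPM above and 1.79 CPM below in the mutant, and 269 CPM and no count in the control. Cspg4, another pericyte gene, had 251 CPM above and 306 CPM below the limit in the mutant, and 422 and 394 CPM in the control. Notch3 had 605 CPM above and 815 CPM below in the mutant, and 710 and 907 CPM in the control. Rgs5, Abcc9, Kcnj8 and Notch3 were thus lower over the limit in both libraries, and Cspg4 in the mutant library but not in the control library.

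The 2 libraries were closer on either side of the limit than over the whole cluster for Acta2. Above 1%, Acta2 had 13220 CPM in mutant and 11960 CPM in control cells, a ratio of 1.11 (1.07 to 1.14), and below it 680 and 707 CPM, a ratio of 0.962 (0.891 to 1.04). Tagln had ratios of 1.04 (1.00 to 1.09) above and 0.589 (0.513 to 0.676) below the limit. Because the limit was set on the genes themselves, it narrows their range on each side. Actg2 kept a ratio of 2.97 (2.34 to 3.82) above the limit, with 603 CPM in the mutant and 203 CPM in the control. Myh11 had a ratio of 1.34 (1.22 to 1.47) there, Tpm1 of 1.34 (1.25 to 1.44) and Cnn1 of 1.48 (1.18 to 1.88). Tpm2 and Myl9 had ratios of 1.09 (1.03 to 1.16) and 1.10 (1.05 to 1.17) above the limit. Below it both were lower in the mutant, at 0.912 (0.834 to 0.998) and 0.899 (0.818 to 0.990). Actg2 was higher below the limit too (2.09, 1.32 to 3.47), and the intervals of Myh11, Tpm1 and Cnn1 held 1 there.

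Of 32 other genes of the contractile apparatus and its regulators measured in cluster 10, 20 were higher and 2 lower in the mutant, with a median log2 ratio of 0.34. Over all genes measured in this cluster 11.8% were higher and 8.48% lower, for this list and those below. Mylk, the kinase that starts contraction, had 771 CPM in the mutant and 576 CPM in the control, a ratio of 1.34 (1.25 to 1.43). Csrp1, which encodes a LIM protein of smooth muscle, had 736 and 470 CPM, a ratio of 1.57 (1.45 to 1.69). The widest ratios were those of Pln, with 133 and 53.2 CPM and a ratio of 2.50 (2.02 to 3.13), and of Synpo2, an actin-bundling protein, with 79.0 and 32.6 CPM and a ratio of 2.42 (1.84 to 3.24). Fhl1 (1.86, 1.42 to 2.45) and Cacna1c, the pore of the L-type calcium channel (2.18, 1.37 to 3.61), were also higher. Lower were Tpm4 (542 CPM in the mutant, 607 CPM in the control) and Tagln2 (286 and 317 CPM), the tropomyosin and transgelin genes of many cells that are not muscle.

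The abundant regulators moved less. Myl6, the essential light chain, had a ratio of 1.29 (1.24 to 1.34), Flna of 1.23 (1.13 to 1.33) and Cald1, which encodes caldesmon, of 1.05 (1.01 to 1.09). Rhoa had 564 CPM in the mutant and 528 CPM in the control, and its interval held 1.

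The vascular smooth muscle list, which holds 4 of the 8 genes, had 9 of 11 measured genes higher and none lower. Its 8 other genes summed to 601 CPM in the mutant and 357 CPM in the control. Among them, Lmod1, Des, Synpo2, Kcnmb1, Pln and Itga8 are also in the list of the contractile apparatus above.

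The pericyte list did not follow the contractile genes. Of 11 markers, 1 was higher (Vtn, 57.9 CPM in the mutant and 33.7 CPM in the control) and 6 were lower, with a median log2 ratio of -0.09. Rgs5, a regulator of G protein signalling, had 16923 CPM in the mutant and 18066 CPM in the control, a ratio of 0.937 (0.925 to 0.949). Cspg4, the NG2 proteoglycan, had 285 and 399 CPM, a ratio of 0.713 (0.651 to 0.782). Pdgfrb, the receptor through which mural cells are recruited, had 767 CPM in the mutant and 769 CPM in the control (ratio 0.997, 0.937 to 1.06).

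Of 9 actin, myosin and tropomyosin paralogs measured, 2 were higher and 4 lower. This list shares Myl6, Tpm3 and Tpm4 with that of the contractile apparatus. Actb, the cytoplasmic beta actin, had 7638 CPM in the mutant and 5856 CPM in the control, a ratio of 1.30 (1.28 to 1.33). Actg1, the cytoplasmic gamma actin, had 1457 and 1471 CPM, a ratio of 0.990 (0.947 to 1.04). Myh9, a nonmuscle myosin, was lower at 303 CPM in the mutant and 361 CPM in the control. The coding parts of the actins are near-identical, and how reads that match more than 1 of them were counted is not given in the sources used here.

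Of 17 genes measured for the transcriptional control of contractile genes, 4 were higher and 4 lower. Mef2c, a transcription factor of muscle, had 260 CPM in the mutant and 173 CPM in the control, a ratio with an interval of 1.32 to 1.70, and Klf4 had 233 and 197 CPM. Tgfb3 and Tgfbr2 were also higher. Lower were Notch3, with 739 CPM in the mutant and 868 CPM in the control, its ligand gene Jag1, with 303 and 393 CPM, Tgfb1 and Mkl2. Srf, the factor that binds CArG boxes, had 38.9 CPM in the mutant and 34.8 CPM in the control, and Myocd, its partner, 19.9 and 15.2 CPM, and the intervals of both held 1. These values rested on 172 mutant and 64 control counts of Srf, and on 88 and 28 counts of Myocd.

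**Figure D5:**
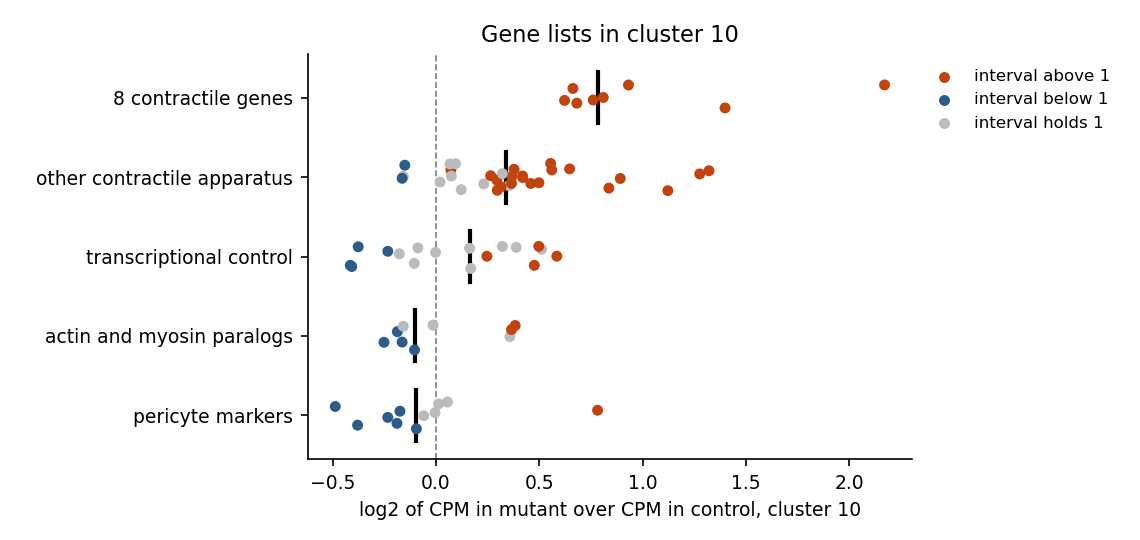
Log2 ratio of CPM in the mutant over CPM in the control in cluster 10 for each measured gene of 5 lists (points; the vertical spread within a list has no meaning), with the median of the list as a black bar. The 8 contractile genes all lie above 0 with a median of 0.79, and the pericyte markers centre on -0.09.

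In cluster 7, 6 contractile genes were measured and all 6 were higher in the mutant, against 10.2% of 8843 genes. The summed level was 3475 CPM in the mutant and 1360 CPM in the control, a ratio of 2.56 (2.43 to 2.69). Acta2 had 770 CPM in the mutant and 74.7 CPM in the control, a ratio of 10.3 (8.30 to 12.96). Its 83 control counts came from 21 of 102 cells. In each library 1 cell held 2.76% of the mutant and 27.7% of the control counts of Acta2. For Tagln these shares were 3.11% and 29.3%, and for Myl9 1.35% and 15.6%. Tagln had 707 and 172 CPM, a ratio of 4.11 (3.56 to 4.77), and Myl9 had 527 and 190 CPM, a ratio of 2.78 (2.42 to 3.20). These 3 genes and Cnn1 were at least 2-fold higher, which 2.61% of genes were.

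Cnn1 had 30.6 CPM in the mutant and 1 count, or 0.900 CPM, in the control, a ratio of 34.0 (6.04 to 1346). Tpm1 (944 CPM in the mutant and 606 CPM in the control) and Tpm2 (479 and 314 CPM) had ratios of 1.56 (1.44 to 1.69) and 1.53 (1.37 to 1.71). Actg2 had 21 counts in the mutant and 0 in the control, and Myh11 15.8 and 2.70 CPM, both under the limit for measuring. Acta2, Tagln, Myl9 and Cnn1 thus had ratios above those of the tropomyosins, with intervals that did not overlap theirs.

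The genes that define cluster 7 differed between the libraries too. Sfrp2 had 11324 CPM in the mutant and 3770 CPM in the control, a ratio with an interval of 2.91 to 3.10, and the control gave 102 cells to the mutant's 770. Pericyte markers summed to 439 CPM in the mutant and 405 CPM in the control, those of endothelium to 88.9 and 26.1 CPM and those of Schwann cells to 72.9 and 32.4 CPM. Markers of dental pulp and follicle summed to 2156 CPM in the mutant and 3979 CPM in the control, and those of dental epithelium to 82.3 and 223 CPM. Their part in the contractile ratios was not tested beyond leaving out cells with endothelial, macrophage or dental epithelial markers. Doing so gave a ratio of the sum of 2.12 and left only 297 of 770 mutant and 47 of 102 control cells. Whether the 2 libraries hold the same kinds of cell in this cluster was not tested.

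In cluster 13, 6 of 7 measured contractile genes were lower in the mutant, against 10.5% of 8264 genes. Acta2 had 372 CPM in the mutant and 827 CPM in the control, a ratio of 0.449 (0.429 to 0.471). Cnn1 had 19.1 and 49.6 CPM, a ratio of 0.384 (0.313 to 0.472), and these 2 genes were at least 2-fold lower, which 0.424% of genes were. Myh11 had 94.8 CPM in the mutant and 159 CPM in the control, and Tagln 949 and 1394 CPM.

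Tpm2 (0.736, 0.710 to 0.764) and Myl9 (0.778, 0.752 to 0.804) were lower as well. Tpm1, the gene with its highest level in this cluster, had a ratio of 0.990 (0.970 to 1.01). The summed level was 6050 CPM in the mutant and 7626 CPM in the control, a ratio of 0.793 (0.783 to 0.804), and 57 of 430 mutant and 52 of 224 control cells had more than 1% of their UMIs in the 8 genes. Of 25 other contractile genes measured, 2 were higher and 11 lower, among them Nexn, an actin-binding protein, with 70.0 CPM in the mutant and 117 CPM in the control. The median cell held 18640 UMIs in the mutant and 23368 in the control, and the erythroid transcripts of the cluster summed to 523 CPM in the mutant and 5458 CPM in the control. Endothelial markers summed to 84.6 CPM in the mutant and 25.2 CPM in the control, macrophage markers to 180 and 85.3 CPM, odontoblast markers to 183 and 99.6 CPM and pericyte markers to 257 and 177 CPM. Without cells carrying endothelial, macrophage or dental epithelial markers the ratio of the sum was 0.706. That left only 104 of 430 mutant and 39 of 224 control cells. The part of depth, of erythroid transcripts and of the other marker lists was not otherwise tested.

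Cluster 11 was led by Hist1h2ap, Ube2c and Top2a, genes of dividing cells, and held 6 of 6 cycling markers. All 7 measured contractile genes were higher there in the mutant, against 22.8% of 8534 genes, and the summed level was 2734 CPM in the mutant and 965 CPM in the control, a ratio of 2.83 (2.73 to 2.94). Acta2 had 478 CPM in the mutant and 62.1 CPM in the control, with 13.1% and 45.3% of the counts in 1 cell. Tagln had 326 and 56.5 CPM. Actg2 had 116 counts in 7 mutant cells and 1 count in the control, and 43.1% of the mutant counts came from 1 cell.

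All 10 measured pericyte markers were also higher in cluster 11. Rgs5 had 1230 CPM in the mutant and 235 CPM in the control, and fibroblast markers summed to 8664 and 4173 CPM. Of the 8 dental epithelial markers, 7 were lower, with a sum of 882 CPM in the mutant and 1768 CPM in the control. Over the 26 clusters compared, between 3.18% and 19.3% of all genes were lower. Erythroid transcripts summed to 12866 CPM in the mutant and 270 CPM in the control. Markers of pericytes, fibroblasts and dental epithelium were all counted in this cluster, so a different mix of dividing cells and a different level per cell cannot be told apart.

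Over all 26 clusters compared, Acta2 was measured in 19, higher in 9 and lower in 6, and Tagln was higher in 8 and lower in 6 of 19. Tpm1 was higher in 12 and lower in 3 of 26, Tpm2 higher in 8 and lower in 6 of 26, and Myl9 higher in 9 and lower in 5 of 25. Actg2 was measured in clusters 10 and 11 alone. Over the same clusters, between 4.93% and 33.9% of all genes were higher (median 11.8%) and between 3.18% and 19.3% lower. The sum of the 8 genes was higher in 14, lower in 9 and held 1 in 3 clusters. By these intervals the direction differed between clusters for 7 of the 8 genes. Acta2 was lower in clusters 4, 6, 12, 16 and 20, where 1 cell held 40.6%, 25.7%, 30.2%, 47.4% and 59.5% of its control counts. Of its mutant counts, 1 cell held 31.0%, 11.25%, 31.3%, 27.5% and 18.5% there. In cluster 13, where Acta2 was lower too, these shares were 5.69% in the control and 6.72% in the mutant.

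Endothelial genes (Cldn5, Kdr, Flt1) led cluster 8, where all 5 measured contractile genes were higher in the mutant (12.3% of 8246 genes were), at low levels such as 29.6 CPM in the mutant and 13.6 CPM in the control for Acta2. Chemokine and complement genes (Ccl2, Cxcl2, C1qa) led cluster 4, where 4 of 5 were lower (12.1% of 7523 genes), with 25.1 CPM of Acta2 in the mutant and 50.5 CPM in the control. There 1 cell held 31.0% of the mutant and 40.6% of the control counts of Acta2, and the gene was detected in 14.9% of mutant and 7.13% of control cells (1.72% and 0.815% when thinned). The median cell of cluster 4 likewise had more of its UMIs in the 8 genes in the mutant, 0.00960% against 0.00583% in the control. Cluster 23, led by Jchain, Chil3, Ccr2 and Ly6c2, had all 4 measured genes higher (11.4% of genes), with Tpm1 at 97.9 CPM in the mutant and 39.4 CPM in the control. In the mutant, 1 cell held 42.3% of the Acta2 counts of cluster 23, 34.0% of Myl9, 23.6% of Tpm2 and 16.1% of Tpm1. Control counts of Acta2, Myl9 and Tpm2 there were only 7, 6 and 2. In haemoglobin-rich cluster 18, Acta2 had 6.37 CPM in the mutant and 2.41 CPM in the control. Acta2 was far lower in all 4 of these clusters than in cluster 10, which it helped to define.

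Other clusters went either way. In cluster 3, led by Fmod and Tnc, 4 of 5 measured genes were higher (19.7% of genes), with Tpm1 at 684 CPM in the mutant and 559 CPM in the control. In cluster 21, led by Col1a1, Cpa6 and Meg3, 3 of 6 were lower (11.7% of genes), with Myl9 at 192 CPM in the mutant and 435 CPM in the control, a ratio of 0.442 (0.320 to 0.608). In shallow cluster 0, led by Ldhb and Crabp1, 4 of 6 were higher (14.9% of genes), with Acta2 at 225 CPM in the mutant and 63.7 CPM in the control. Its median cell held 723 UMIs in the mutant and 801 UMIs in the control.

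Clusters 16 and 20, with keratin genes among their leading genes, had most of the measured contractile genes lower. In cluster 16, led by Igfbp2 and Krt15, 4 of 5 genes were lower (13.5% of genes), with Tpm1 at 322 CPM in the mutant and 482 CPM in the control. In cluster 20, led by Krt17, Krt73 and Shh, 3 of 5 were lower (7.7% of genes), with Tpm2 at 139 CPM in the mutant and 233 CPM in the control. In cluster 16, 1 cell held 27.5% of the mutant and 47.4% of the control counts of Acta2. The gene was detected there in 10.3% of mutant and 6.32% of control cells. In cluster 20, 1 cell held 18.5% of the mutant and 59.5% of the control counts of Acta2. Its detection there was 19.2% of mutant and 10.4% of control cells.

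Over the whole ameloblast lineage, all 5 measured contractile genes were lower in the mutant, against 36.3% of 7661 genes. Acta2 had 18.1 CPM in the mutant and 32.6 CPM in the control, Tagln 15.4 and 47.1 CPM, and Tpm1 272 and 321 CPM. Yet Acta2 was detected in 11.1% of mutant and 6.54% of control lineage cells (2.53% and 1.70% when thinned). In each library 1 cell held 7.08% of the mutant and 18.3% of the control counts of Acta2. Of 5 ameloblast clusters where Acta2 was measured, it was higher in 2 and lower in 0. Tagln was detected in 7.25% of mutant and 9.06% of control lineage cells. The summed level was 379 CPM in the mutant and 528 CPM in the control, a ratio of 0.718 (0.700 to 0.737), and Actg2, Myh11 and Cnn1 lay under the limit for measuring. Tpm1 thus made up most of the contractile counts of the lineage in both libraries.

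The lineage is a mixture whose make-up differed. Tagln was a leading gene of ameloblast cluster 1, led by Grp, Sfrp5, Atf3 and Pthlh, with 196 CPM in the mutant and 211 CPM in the control (ratio 0.927, 0.761 to 1.12), and this cluster gave 75 mutant and 495 control cells. Acta2 had 131 CPM in the mutant and 139 CPM in the control there. In both libraries a single cell held between 23.8% and 43.7% of the counts of these genes. Myl9 (93.7 and 154 CPM) and Tpm1 (363 and 497 CPM) were lower there in the mutant, against 8.01% of genes. Tpm2 had 69.0 CPM in the mutant, from 42 counts, and 27.6 CPM in the control (ratio 2.50, 1.74 to 3.53).

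In the clustering of all cells, most cells of ameloblast cluster 1 fell into cluster 12, in which all 8 dental epithelial markers stood above the other cells. There 4 of 5 measured contractile genes were lower, against 8.29% of 8811 genes, with Tagln at 83.1 CPM in the mutant and 210 CPM in the control. Of the mutant cells of cluster 12, 69 belonged to ameloblast cluster 1 and 91 to ameloblast cluster 8, to which no control cell belonged. Of the control cells, 470 belonged to ameloblast cluster 1. In ameloblast cluster 8, Tagln had 25.2 CPM, Acta2 10.1 CPM, Myl9 68.5 CPM and Tpm1 311 CPM. The ratio of Tagln in cluster 12 was 0.395 (0.331 to 0.469).

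In ameloblast cluster 3, where all 4 secretory ameloblast markers stood above the rest of the lineage, Tpm1 had 236 CPM in the mutant and 159 CPM in the control, a ratio of 1.48 (1.38 to 1.59), and it was the 1 contractile gene measured there. The interval lay above 1 for 31.5% of genes in this cluster. In ameloblast cluster 7, which held all 5 maturation markers, Tpm1 had 276 CPM in the mutant and 293 CPM in the control (ratio 0.943, 0.823 to 1.08). Tagln had 4.30 and 17.3 CPM there and was lower, against 18.9% of genes.

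In ameloblast cluster 6, led by Dspp and Fxyd4, Tpm1, Tpm2 and Myl9 were all higher, against 32.6% of genes, with Tpm2 at 25.01 CPM in the mutant and 7.37 CPM in the control (ratio 3.39, 2.26 to 5.24). In ameloblast cluster 2, led by Pi15 and Igfbp2, Tagln, Tpm1 and Tpm2 were lower, against 13.5% of genes, with Tpm1 at 326 CPM in the mutant and 493 CPM in the control. In ameloblast cluster 5, Tpm1 and Tpm2 were lower, against 7.49% of genes, with Tpm2 at 146 CPM in the mutant and 241 CPM in the control. Shallow ameloblast cluster 0, with a median of 898 UMIs per mutant and 1092 per control cell, had Tpm2 lower (196 and 421 CPM), against 10.8% of genes, and Acta2, Tagln and Myl9 higher, against 14.6% of genes, with Acta2 at 54.7 CPM in the mutant and 15.1 CPM in the control.

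Summed over all cells, 6 of 6 measured genes were higher in the mutant, as were 60.3% of 9099 genes. The summed level was 1658 CPM in the mutant and 1176 CPM in the control, a ratio of 1.41 (1.40 to 1.42). For such sums, more cells of a type and more RNA of a gene per cell cannot be told apart.

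Over the 29 clusters, both libraries summed, the genes most like the sum of the 8 by Pearson correlation of log2(CPM + 10) were Mmp11 (r = 0.909), Adamts2 (0.896), Nexn (0.891), Smarcd3 (0.882) and Epb41l1 (0.865). Acta2 was most like Spon2 (0.914), Lpl (0.860) and Abcc9 (0.847). Actg2 was most like Higd1b (0.990), Casq2 (0.985) and H2-M9 (0.985), and Tpm1 was most like Mmp14 (0.892), Mmp11 (0.862) and Smarcd3 (0.847). Among the 8 genes themselves r was lowest for Actg2 and Tpm1 (0.394) and highest for Acta2 and Cnn1 (0.931). These values describe 29 clusters that share 2 libraries, their depth and the cells that formed them, and cluster 10 weighs heavily in them. They do not describe single cells. Within cluster 10, Abcc9 had 93.8 CPM above and 679 CPM below the 1% limit in the mutant, and 104 and 638 CPM in the control.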

How the data were processed

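Per the submitters' processing notes, the authors used Cell Ranger (no version found), mm10 and Seurat 3 to make the deposited UMI counts. Clusters and lineage calls are the authors'. The deposited counts are whole numbers for 19626 genes, and a dense copy held equal values for all 8 genes. In the file, cells had 501 to 49967 UMIs and at least 200 genes. Doublets were not called here and free RNA was not subtracted here. Whether either was done before the files were deposited is not given in the sources used here.

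Counts were summed per cluster and library and divided by the total (CPM). Ratios carry exact conditional 95% intervals, and shares carry Clopper-Pearson intervals. Thinning to 1000 UMIs left out shallower cells. The intervals were tested on simulated Poisson counts, the model they assume, so the clumping of counts in single cells was not covered. Members, 4 lists of functions and 15 of markers (178 genes, 8 not analysed here) were chosen with earlier results of these data known. Named genes were the members, the genes most like them, and in cluster 10 the most abundant and most changed genes of each list. Genes of other clusters were named after their values were seen. TMM factors came from edgeR 4.0.16 and median-of-ratios factors from DESeq2 1.42.0, with R 4.3.3. Intervals were computed with scipy 1.17.1 and figures drawn with matplotlib 3.10.9, under Python 3.11.15 with pandas 2.3.3 and numpy 2.4.6. Sequences are from RefSeq (GRCm38.p6). Protein sequences were not used here.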

Additional observations from a re-analysis of the deposited data

Results flagged for a closer look

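6 of the contractile genes were higher in the mutant in mural-like cluster 10 and lower in cluster 13, by intervals that exclude 1 in both, and the difference between the clusters was not tested over mice. For Acta2 the ratio of mutant over control was 1.75 in cluster 10 and 0.449 in cluster 13. For Tagln it was 1.70 and 0.681, and for Myh11 1.91 and 0.595. For Cnn1 it was 2.64 and 0.384, for Tpm2 1.54 and 0.736, and for Myl9 1.60 and 0.778.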

How the results depend on the processing

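No paired analysis was possible because each group had 1 library. The ratio of the summed contractile level kept its direction in all 5 classes under all 9 alternatives. In cluster 10 it was 1.70, and 1.66 with TMM and with median-of-ratios factors, 1.49 with stricter cell limits, 1.81 as a mean of per-cell CPM and 1.67 without the 5% of cells with the most UMIs. It was 1.81 without the top cell and 1.25 without cells carrying markers of other types. All 72 ratios of single genes in cluster 10 stayed above 1 (1.11 to 10.1), and 8 genes were called under each of the 3 alternatives run for that count. In the lineage the ratio was 0.718, and 0.760 without the 50 most abundant genes, 0.759 thinned, 0.868 per cell, 0.685 without the deepest cells and 0.765 without cells carrying other markers. Over all cells it was 1.41, and in the same order of alternatives 1.28 (TMM), 1.27 (median of ratios), 1.33 (without abundant genes), 1.28 (stricter limits), 1.60 (thinned), 1.58 (per cell), 1.53 (without deepest), 1.42 (without the top cell) and 1.23 (without other markers). Over all cells, leaving out cells with other markers removed endothelial, macrophage and dental epithelial cells themselves. It kept 3896 of 13820 mutant and 2219 of 9708 control cells, so 1.23 describes a different set of cells. For the lineage, the other markers were those of endothelium, macrophages, pericytes and vascular smooth muscle, without the 8 genes. There 819 of 2303 mutant and 1261 of 2981 control cells were kept. Alternatives for clusters 7 and 13 were chosen after seeing the data. In cluster 7 the ratio was 2.56, and 3.17 thinned, 2.93 per cell and 2.12 without other markers. In cluster 13 it was 0.793, and 0.778 with TMM, 0.779 with median-of-ratios factors, 0.824 thinned, 0.805 per cell, 0.766 without the deepest cells and 0.706 without other markers. The cause of these shifts was not tested. At these depths Actg2 could be compared in 2 of 26 clusters, Cnn1 in 3 and Myh11 in 6.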

Other observations

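A few cells outside cluster 10 carried much of the contractile signal of their cluster. In control cluster 4, led by Ccl2 and C1qa, 2 of 491 cells with at least 1000 UMIs had more than 1% of their UMIs in the 8 genes, against 0 of 987 mutant cells, and the 10 cells with the most contractile counts held 39.2% of those counts in the mutant and 75.6% in the control. In the control lineage 1 cell reached 2.39%, in epithelial cluster 12, against a highest value of 0.774% in the mutant lineage. Over the whole libraries 307 of 10820 mutant cells, or 2.84%, and 95 of 6915 control cells, or 1.37%, passed 1%. Of the mutant cells 168 were in cluster 10, 65 in cluster 7 and 57 in cluster 13, and of the control cells 52 were in cluster 13 and 32 in cluster 10.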
